A study of Mus musculus with 11 samples.

Results

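The genes described here encode structural proteins of neurons, most of them of the axon. They are the neurofilament subunits Nefl, Nefm and Nefh, the related filament genes Prph and Ina, and the beta-tubulins Tubb3 and Tubb2b. The list also holds the growth cone protein Gap43 and the microtubule-associated genes Mapt and Map2, the latter mainly of dendrites. These genes were chosen by name, with earlier results of these data known. All 10 were found among 30142 named genes, each on 1 row of the array that carried a single gene symbol. Expression was measured on 11 Affymetrix mouse transcriptome arrays of total RNA from 2 months old C57B6 mice, male and female; the labels name no treatment or transgene. Carotid body was measured on 3 arrays, and adrenal medulla and superior cervical ganglion (here, the ganglion) on 4 each. A carotid body array held RNA pooled from 10 mice and any other array RNA pooled from 3 mice, so a replicate is a pool of whole tissue. The labels do not say how mice were divided among pools, so p-values measure the spread between these pools.

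Neurofilaments are the long filaments that fill large axons and set their calibre. The light subunit Nefl forms the core of the filament, on which the medium (Nefm) and heavy (Nefh) subunits, alpha-internexin (Ina) and, in peripheral neurons, peripherin (Prph) assemble. Beta-tubulins pair with alpha-tubulins to form microtubules, the tracks of axonal transport, and tau (Mapt) and Map2 bind along them in axons and dendrites. The carotid body is the arterial organ that senses blood oxygen, the adrenal medulla secretes adrenaline and noradrenaline, and the superior cervical ganglion holds the cell bodies of sympathetic neurons.

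All 10 genes were highest in the ganglion, on every array of it. In carotid body all were lower than in ganglion, by 3.41-fold (Gap43) to 27.7-fold (Nefl). Carotid body was called higher than adrenal medulla (limma adjusted p under 0.05 and at least 2-fold) for 6 of the 10, against 6.06% of all genes. These were Tubb3, Prph, Tubb2b, Gap43, Nefl and Nefm, at 2.22-fold to 40.2-fold. The Nefm call was lost without carotid body replicate 1 or 3. For the remaining genes the carotid body mean was higher by a log2 difference of 0.06 (Ina) to 0.72 (Map2), and none was called. Within the carotid body group, replicate 1 was the highest and replicate 2 the lowest of the 3 arrays, for Gap43 in a tie with replicate 3.

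The RefSeq promoter table of assembly GRCm38.p6 held 4 of the 10 genes (Tubb3, Prph, Ina and Map2). They are printed to show the start regions of these genes, and no relation of their letters to the tissue differences was tested. For each, the 100 bases upstream of the annotated start are shown 5′ to 3′, all from the plus strand. They lie at chr8:123411453-123411552 (Tubb3), chr15:99055074-99055173 (Prph), chr19:47014581-47014680 (Ina) and chr1:66175229-66175328 (Map2). Capitals mark matches, on either strand, to the TATA box letters TATAA, to the GC box letters GGGCGG and to the CCAAT box.
Tubb3: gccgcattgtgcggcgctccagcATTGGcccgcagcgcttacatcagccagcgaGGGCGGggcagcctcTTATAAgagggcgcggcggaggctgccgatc
Prph: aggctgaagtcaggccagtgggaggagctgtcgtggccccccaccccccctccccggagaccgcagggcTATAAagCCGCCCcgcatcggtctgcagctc
Ina: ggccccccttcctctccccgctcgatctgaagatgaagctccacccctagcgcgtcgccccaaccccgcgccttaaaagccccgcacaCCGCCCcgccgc
Map2: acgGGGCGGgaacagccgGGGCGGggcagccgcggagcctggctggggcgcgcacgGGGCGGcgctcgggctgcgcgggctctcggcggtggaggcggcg
The TATAA letters begin 31 bases before the start in Prph, and in Tubb3 a match on each strand overlaps at 31 and 30 bases before it. These letters occur in 10.2% of 32851 promoter windows of the same length, and the Ina and Map2 windows, like most, have none. Map2 has 3 matches to GGGCGG and each of the other 3 genes has 1, a motif found in 24.7% of all windows. Tubb3 also has 1 match to CCAAT (18.9% of all windows), and none of the 4 holds the letters CANNTG (34.4%). These matches describe letters, and say nothing of which factors bind.

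Values are log2 signals from the authors' RMA processing, given for each array in replicate order and then as mean ± SD (n = 4 adrenal medulla, n = 3 carotid body, n = 4 ganglion). A difference was called at a limma adjusted p under 0.05 and at least 2-fold. Medians over all genes lay between 5.63 and 5.84 on the 11 arrays, and Pearson's r across genes, which are not independent replicates, was 0.9854 to 0.9923 between carotid body arrays, 0.9895 to 0.9956 between ganglion arrays and 0.9944 to 0.9962 between adrenal medulla arrays. Some genes exceeded 16 (182 to 276 per array), the usual limit of a log2 scan, so folds hold on the deposited scale only. As a check of the tissue labels, Pnmt, the adrenaline-forming enzyme, averaged 14.13 in adrenal medulla against 5.57 in carotid body, and its ganglion mean of 5.18 was below background. Cortical steroid genes were high on the adrenal medulla arrays too, with a summed level (log2 of 7 linear signals) of 21.22 to 21.40 against 7.79 to 8.23 in carotid body, and their part in the members' adrenal medulla levels was not tested. Signal from silent gene families set a background bound of 5.35 for adrenal medulla, 5.38 for carotid body and 5.45 for ganglion, and every array of all 10 genes lay above it.

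**Figure D1:**
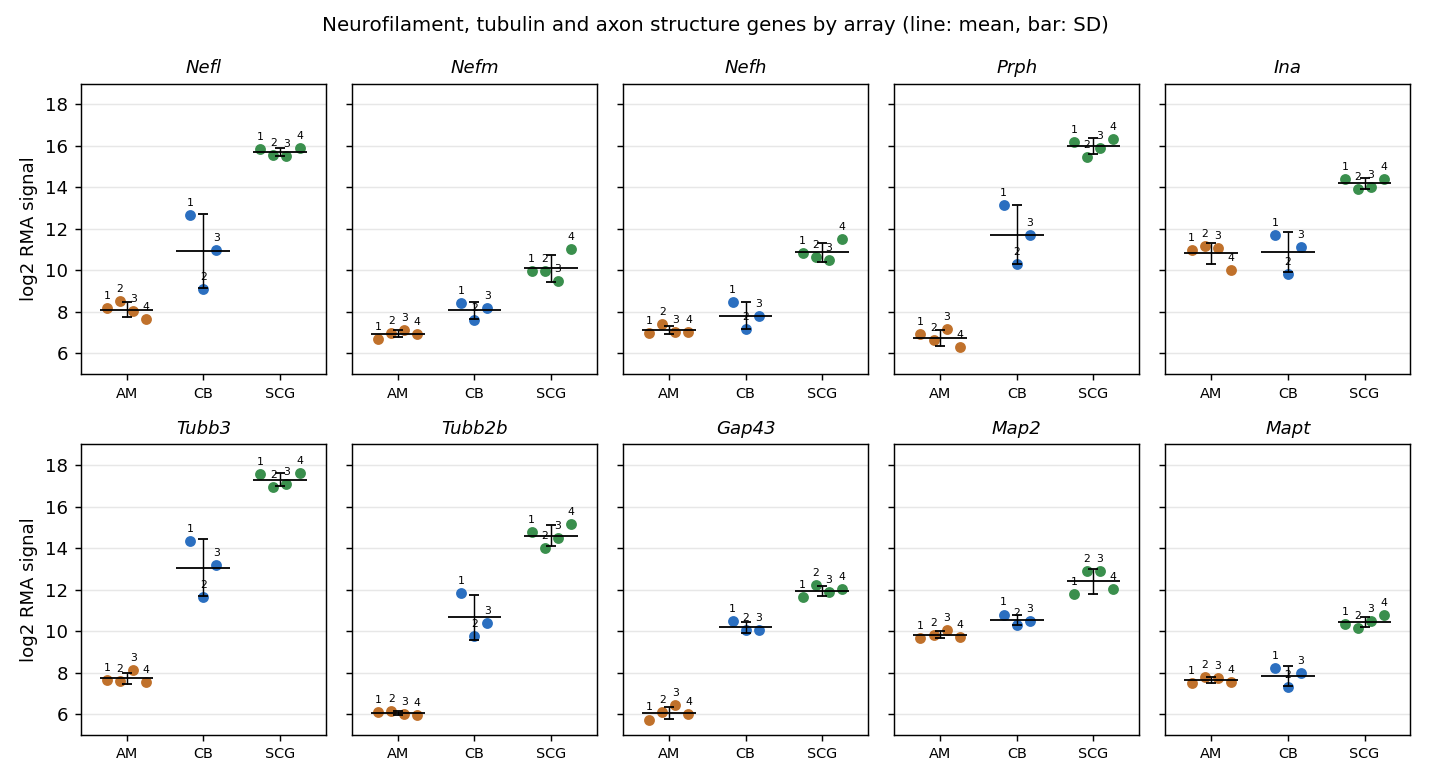
Log2 signal of each of the 10 genes (vertical axis) on every array of adrenal medulla (AM, n = 4), carotid body (CB, n = 3) and superior cervical ganglion (SCG, n = 4). Small digits are replicate numbers, horizontal lines the group means and bars the SD. The ganglion arrays lie above all others for every gene, and carotid body replicate 1 lies above replicate 2 for every gene, as in Nefl at 12.68 and 9.12.

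The core neurofilament subunit Nefl read 15.87, 15.57, 15.52 and 15.91 on the ganglion arrays (15.72 ± 0.20). On carotid body arrays it read 12.68, 9.12 and 10.99 (10.93 ± 1.78), and on adrenal medulla arrays 8.18, 8.52, 8.06 and 7.64 (8.10 ± 0.36). The tissues did not overlap, but the carotid body arrays spread over 3.55 log2 units against 0.39 in ganglion. Nefl was 27.7-fold lower in carotid body than in ganglion (log2 difference -4.79, SE 0.62, limma adjusted p = 0.000119), 50.8-fold without carotid body replicate 1 and 14.8-fold without replicate 2. Carotid body exceeded adrenal medulla 7.09-fold (SE 0.62, limma adjusted p = 0.0051), 3.87-fold without replicate 1 and 13.3-fold without replicate 2. The fit shares a single spread per gene over all tissues, so its SEs and p-values understate the wider spread of the carotid body arrays here. The same holds for Prph, Tubb3 and Tubb2b, with carotid body SDs of 1.43, 1.36 and 1.07.

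Nefm, the medium subunit, lies beside Nefl on chromosome 14 with no other protein-coding gene between them in RefSeq, yet its range between tissues was narrower. It read 9.99, 9.96, 9.47 and 11.01 in ganglion (10.11 ± 0.65). Carotid body arrays gave 8.44, 7.63 and 8.18 (8.09 ± 0.41), and adrenal medulla arrays 6.71, 6.98, 7.12 and 6.94 (6.94 ± 0.17). Again no tissue overlapped another, and ganglion replicate 4 stood above the other ganglion arrays. The difference was 4.06-fold between ganglion and carotid body (limma adjusted p = 0.000402) and 2.22-fold between carotid body and adrenal medulla (log2 1.15, limma adjusted p = 0.0165). That second call sat near its limits: it was lost without carotid body replicate 1 (0.97, limma adjusted p = 0.0602) or replicate 3 (1.10, limma adjusted p = 0.0572), and after median centring of the arrays (a difference that rounds to 1 but is below it, limma adjusted p = 0.0344).

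Nefh, the heavy subunit, whose phosphorylated tail is a mark of mature large axons, read 10.83, 10.63, 10.48 and 11.53 in ganglion (10.87 ± 0.46). Its carotid body values were 8.48, 7.17 and 7.81 (7.82 ± 0.66) and its adrenal medulla values 6.98, 7.41, 7.05 and 7.01 (7.11 ± 0.20). Carotid body replicate 2 fell within the adrenal medulla range, while both tissues stayed below every ganglion array. Nefh was 8.27-fold lower in carotid body than in ganglion (limma adjusted p = 2.06e-05). Against adrenal medulla it was not called, at a log2 difference of 0.71 (95% interval 0.03 to 1.38, limma adjusted p = 0.113), but passed at 1.03 without carotid body replicate 2 (limma adjusted p = 0.0264).

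Peripherin, the intermediate filament of peripheral neurons encoded by Prph, read 16.18, 15.46, 15.92 and 16.34 in ganglion (15.98 ± 0.39). In carotid body it read 13.16, 10.30 and 11.69 (11.72 ± 1.43) and in adrenal medulla 6.92, 6.62, 7.18 and 6.30 (6.76 ± 0.38). The lowest carotid body array was more than 3 log2 units above the highest adrenal medulla array. Prph was 596-fold lower in adrenal medulla than in ganglion and 31.1-fold lower there than in carotid body (log2 difference 4.96, SE 0.53, limma adjusted p = 3.89e-05). Leaving out carotid body replicate 1 made the latter 18.9-fold, and leaving out replicate 2 made it 50.9-fold. Ganglion exceeded carotid body 19.1-fold (limma adjusted p = 9.03e-05), 31.6-fold without replicate 1 and 11.7-fold without replicate 2.

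Ina, which encodes alpha-internexin, had carotid body and adrenal medulla levels that overlapped. The adrenal medulla arrays read 10.99, 11.16, 11.08 and 10.04 (10.82 ± 0.52) and the carotid body arrays 11.70, 9.82 and 11.11 (10.88 ± 0.96), while ganglion arrays read 14.41, 13.93, 14.01 and 14.42 (14.19 ± 0.26). Carotid body replicate 2 was lower than all 4 adrenal medulla arrays, and replicate 1 was higher than all of them. The difference between these tissues was 0.06 (95% interval -0.83 to 0.95, limma adjusted p = 0.936), and its sign turned in several alternatives. Both tissues were lower than ganglion, carotid body 9.97-fold (limma adjusted p = 7.82e-05) and adrenal medulla 10.4-fold (limma adjusted p = 3.15e-05).

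Tubb3, the beta-tubulin used as a marker of neurons, gave the widest gap between ganglion and adrenal medulla of the 10 genes. It read 17.55, 16.96, 17.08 and 17.63 in ganglion (17.30 ± 0.33) and 7.64, 7.61, 8.11 and 7.56 in adrenal medulla (7.73 ± 0.25). The carotid body arrays read 14.36, 11.65 and 13.18 (13.06 ± 1.36), well apart from both. The ganglion exceeded the adrenal medulla 762-fold (log2 difference of adrenal medulla minus ganglion -9.57, SE 0.45, limma adjusted p = 3.66e-08). Carotid body was 40.2-fold above adrenal medulla (limma adjusted p = 1.25e-05), 25.7-fold without its replicate 1 and 65.7-fold without replicate 2. It was 18.9-fold below ganglion (limma adjusted p = 5.25e-05), 29.7-fold without replicate 1 and 11.6-fold without replicate 2.

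Tubb2b, a beta-tubulin of growing neurons, followed the same order of tissues. It read 14.78, 14.00, 14.47 and 15.17 in ganglion (14.61 ± 0.50). Values were 11.84, 9.75 and 10.38 in carotid body (10.66 ± 1.07) and 6.08, 6.17, 6.01 and 5.97 in adrenal medulla (6.06 ± 0.09), with no overlap. Carotid body was 24.2-fold above adrenal medulla (limma adjusted p = 1.14e-05; 16.1-fold without replicate 1) and 15.4-fold below ganglion (limma adjusted p = 2.89e-05; 23.3-fold without replicate 1). Its neighbour on chromosome 13, Tubb2a, encodes a nearly identical protein, and signal of the pair cannot be told apart where probes match both. Tubb2a had means of 16.81 in ganglion, 13.02 in carotid body and 9.35 in adrenal medulla.

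Gap43, a membrane protein of the growth cone that is also made by some Schwann cells, had the narrowest carotid body range of the 10 genes, 0.45 log2 units. Carotid body arrays read 10.48, 10.03 and 10.03 (10.18 ± 0.26), with the same deposited value on replicates 2 and 3. Ganglion arrays read 11.66, 12.22, 11.88 and 12.04 (11.95 ± 0.24) and adrenal medulla arrays 5.74, 6.08, 6.42 and 6.0 (6.06 ± 0.28). In carotid body Gap43 stood 17.4-fold above adrenal medulla (log2 difference 4.12, SE 0.18, limma adjusted p = 5.27e-08) but only 3.41-fold below ganglion (limma adjusted p = 2.35e-05). Glial markers, given below with their values, were likewise high in carotid body and ganglion and low in adrenal medulla, and their part in the Gap43 levels was not tested.

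Map2, which bundles microtubules mainly in dendrites, changed least between ganglion and adrenal medulla. It read 11.77, 12.91, 12.92 and 12.01 in ganglion (12.40 ± 0.60), with replicates 2 and 3 about 1 log2 unit above replicates 1 and 4. Carotid body arrays gave 10.80, 10.31 and 10.50 (10.54 ± 0.25) and adrenal medulla arrays 9.69, 9.79, 10.06 and 9.73 (9.82 ± 0.17). Although the 3 tissues did not overlap, the carotid body minus adrenal medulla difference of 0.72 (95% interval 0.12 to 1.32, limma adjusted p = 0.072) was not called. Ganglion exceeded carotid body 3.64-fold (limma adjusted p = 0.000283) and adrenal medulla 6.01-fold (limma adjusted p = 1.16e-05).

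Mapt, the gene of tau, read 10.32, 10.16, 10.49 and 10.76 in ganglion (10.43 ± 0.26). Carotid body arrays read 8.23, 7.32 and 7.97 (7.84 ± 0.47), replicate 2 again below all adrenal medulla arrays, which read 7.49, 7.77, 7.73 and 7.55 (7.63 ± 0.14). Its carotid body and adrenal medulla levels differed by 0.21 (95% interval -0.25 to 0.66, limma adjusted p = 0.506). In ganglion it was 6.03-fold above carotid body (limma adjusted p = 4.43e-06) and 6.96-fold above adrenal medulla (limma adjusted p = 6.35e-07).

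**Figure D2:**
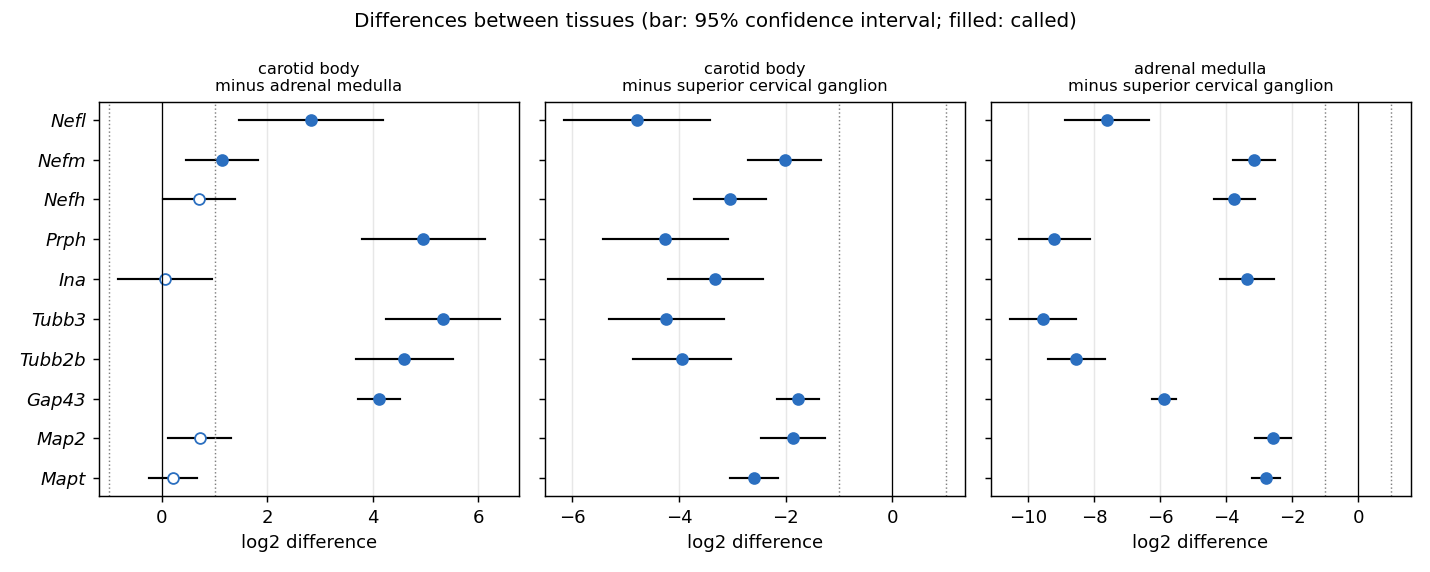
Log2 differences between tissues (horizontal axes) for the 10 genes, as points with 95% confidence intervals from the limma fit; filled points were called and dotted lines mark 2-fold. All 10 points are filled in both comparisons with ganglion, and 6 are filled between carotid body and adrenal medulla, where Ina lies at 0.06.

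Counted together, 10 of 10 genes were called lower in carotid body than in ganglion, where 8.28% of all genes were. Likewise 10 of 10 were called lower in adrenal medulla than in ganglion, against 7.50% of all genes. Between carotid body and adrenal medulla 6 were called higher in carotid body (6.06% of all genes) and 0 lower (4.95% of all genes; 0 of the 10 also lay lower at an unadjusted p under 0.05). The median log2 difference of the 10 was 1.99 for carotid body minus adrenal medulla (0.05 over all genes), -3.18 for carotid body minus ganglion (-0.02) and -4.82 for adrenal medulla minus ganglion (-0.08). Every ganglion array exceeded every carotid body array for 10 genes (21.1% of all genes), and every carotid body array exceeded every adrenal medulla array for 7 genes (19.2% of all genes). Every ganglion array exceeded every adrenal medulla array for 10 (20.2% of all genes). The 6 genes called higher in carotid body were also called lower than in ganglion, as all 10 were. This combination was found in 1.31% of all genes, which is 396 of the 2496 called lower than in ganglion. All 3 comparisons come from the same 11 arrays and share groups, and the 10 genes were chosen with earlier results of these data known. In whole tissue, a different make-up of cells and a different RNA level per cell cannot be told apart.

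The 4 genes not called between carotid body and adrenal medulla were Ina, Map2, Mapt and Nefh. Their adrenal medulla means were 9.63%, 16.7%, 14.4% and 7.40% of the ganglion mean on a linear scale. For Tubb3, Prph, Tubb2b, Nefl and Gap43 the adrenal medulla stood at 0.131%, 0.168%, 0.267%, 0.509% and 1.68% of the ganglion mean, and for Nefm at 11.1%.

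The order of the carotid body arrays was the same for 9 of the 10 genes: replicate 1 highest, then 3, then 2. Among all genes 14.4% had this order, a share that rose to 31.4% after median centring and 24.4% after quantile normalization, while the members' count was 10 and 9. All 10 members belong to the 2496 genes called lower in carotid body than ganglion, and of those 59.9% had this order. The most frequent order over all genes was replicate 2 above 3 above 1 (23.0% of genes), and no member had it. For 6 of the 10 genes replicate 1 exceeded replicate 2 at least 2-fold, against 1.75% of all genes and 18.1% of the 2496 genes called lower than ganglion. The excess was 11.7-fold for Nefl, 7.28-fold for Prph, 6.55-fold for Tubb3, 4.26-fold for Tubb2b, 3.70-fold for Ina and 2.48-fold for Nefh. It was smaller for Mapt (1.88-fold), Nefm (1.75-fold), Map2 (1.41-fold) and Gap43 (1.36-fold). These 3 arrays are replicates of one group, and their differences were not tested.

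Each carotid body array was also set against the ganglion mean on a linear scale. On replicate 1, Nefl, Tubb3, Prph and Tubb2b stood at 12.1%, 13.0%, 14.2% and 14.7% of the ganglion mean. On replicate 3 the same genes stood at 3.76%, 5.72%, 5.13% and 5.35%, and on replicate 2 they lay further apart, at 1.03%, 1.98%, 1.95% and 3.45%. Ina and Nefh stood at 17.8% and 19.1% on replicate 1 and 4.81% and 7.69% on replicate 2. Gap43, Map2 and Nefm kept the highest shares, from 31.6% to 36.0% on replicate 1 and from 18.0% to 26.4% on replicate 2, with Mapt at 21.8% and 11.6%. So the genes with the smallest adrenal medulla share were, apart from Gap43, those that varied most between carotid body arrays. Those genes, Tubb3, Prph, Nefl and Tubb2b, also had the highest ganglion means of the described genes, 17.30, 15.98, 15.72 and 14.61. What part the range of signal above background had in this pattern was not tested.

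**Figure D3:**
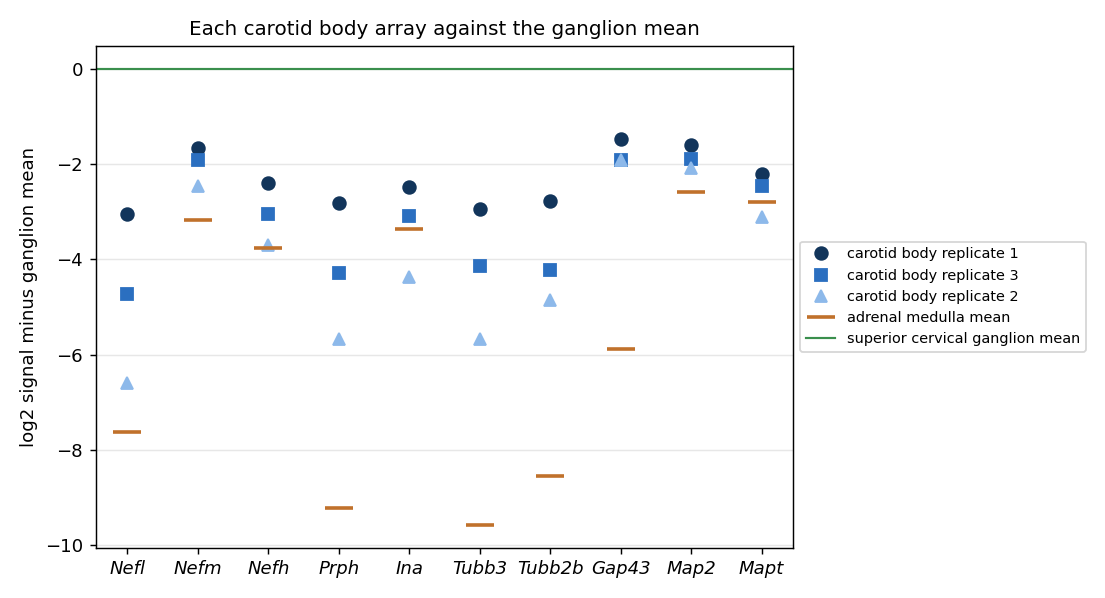
Log2 signal of each carotid body array minus the ganglion mean (vertical axis) for the 10 genes, with the adrenal medulla mean as a dash. For Nefl the replicates lie at -3.04, -4.73 and -6.60 for 1, 3 and 2, whereas for Gap43 they lie between -1.47 and -1.92.

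Neuron markers outside the list moved with this order. Of 14 such genes, 11 had a row of their own, and 10 of these had the order of replicates 1, 3 and 2. Of the 11, 9 were called lower in carotid body than ganglion, a class in which 59.9% of genes had this order (all genes 14.4%). Against adrenal medulla they differed from the members, with a median difference of -0.18 where the members had 1.99. There 2 were called higher in carotid body, Rbfox1 and Syt1, and 2 lower, Chrnb4 and Phox2a (6.06% and 4.95% of all genes). The summed level of the 11 was 18.15, 16.59 and 17.38 on carotid body replicates 1 to 3, 19.29 to 19.45 in ganglion and 17.13 to 17.75 in adrenal medulla. None of the 11 was below background in any tissue. Chrnb4, a nicotinic receptor subunit of autonomic neurons, read 12.48, 9.04 and 10.95 on the carotid body arrays against a ganglion mean of 15.19. The chromaffin list summed to 19.94, 18.24 and 19.06 on the same arrays, with 4 of its 6 genes in that order. Of its genes Dbh, the noradrenaline-forming enzyme, read 19.11, 16.17 and 17.77. Dbh was also high on the ganglion arrays (19.81 to 19.83), so it does not mark chromaffin cells alone. The genes of this list without the order were Chgb, at 15.92, 16.25 and 16.36, and Pnmt, at 5.57, 5.67 and 5.46. What part the cells marked by these lists had in the members' order was not tested.

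The same order was counted in short lists for other cells, with no test between lists, beside the 14.4% of all genes. Smooth muscle and pericyte, adrenal cortex and adipocyte lists had 0 of 5, 0 of 7 and 0 of 5 genes in this order. The counts were 2 of 5 for endothelial, 3 of 6 for fibroblast and 2 of 6 for glial genes. All smooth muscle, adipocyte, endothelial and fibroblast genes were called higher in carotid body than ganglion. Of all genes called so, 8.22% had this order. Of the 7 cortical genes 5 were below background in carotid body. The summed glial level was 16.50, 16.17 and 15.57 on carotid body replicates 1 to 3, 15.67 to 16.75 in ganglion and 11.45 to 12 in adrenal medulla. Cdh19, at 16.01, 15.88 and 14.99, was the largest part of this carotid body sum. The 2 glial genes with the order were Fabp7, at 14.36, 13.22 and 13.53, and Erbb3, at 11.83, 10.99 and 11.21. Sox10 and S100b were also lowest on replicate 2, by less, and Mbp stayed at 8.58 to 8.69. Among 8 sensory neuron markers P2rx3, Scn10a, Trpv1, Slc17a6, Prdm12 and Pou4f1 were below background in carotid body. Avil, an actin-binding protein of that list, read 11.20, 8.91 and 9.70 there, against a ganglion mean of 14.20. Piezo2, a mechanically gated channel and the other gene of that list above background, read 7.39, 7.42 and 7.41 and did not have this order. It was higher in carotid body than in ganglion by 1.02 (limma adjusted p = 2.33e-05), a call near its limit that was lost without ganglion replicate 1 or 4 and after median centring.

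**Figure D4:**
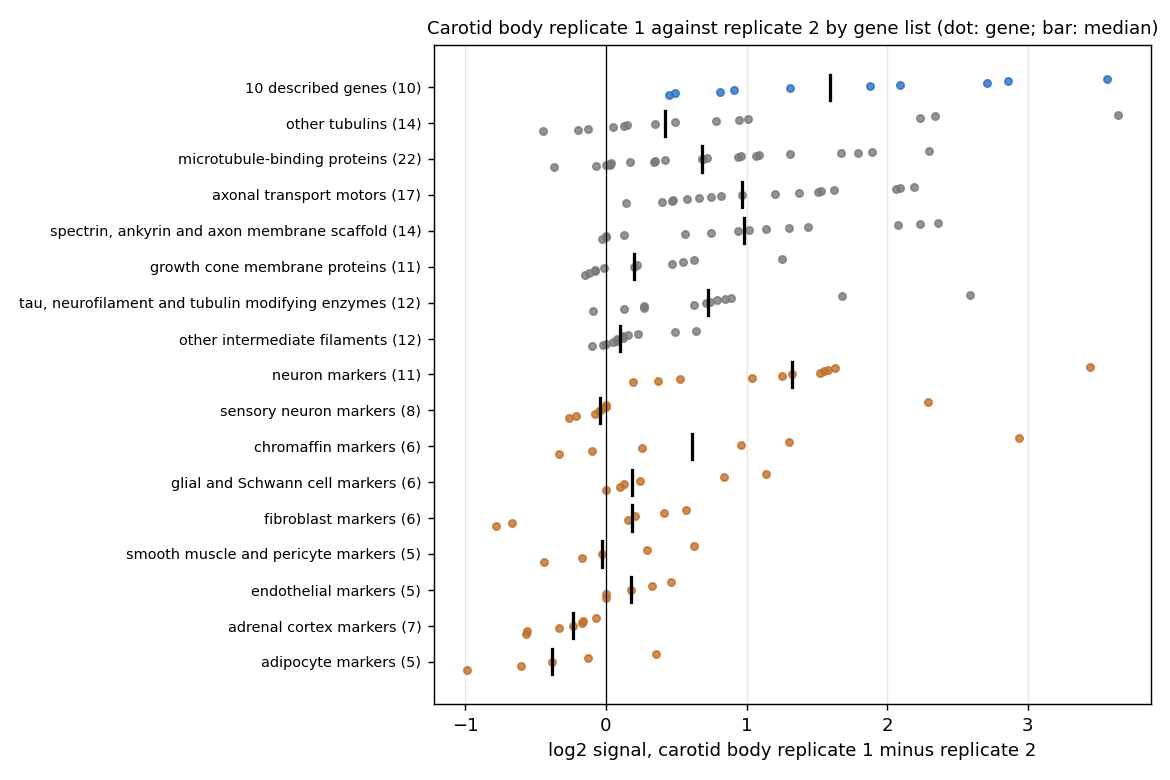
Carotid body replicate 1 minus replicate 2 in log2 signal (horizontal axis), 1 dot per gene and a bar at each list's median, with the number of genes in brackets. The 10 described genes have a median of 1.60 and the neuron markers 1.32, while smooth muscle and pericyte markers lie at -0.03 and adipocyte markers at -0.38.

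Within the ganglion group, replicate 4 was the highest array for 8 of the 10 genes. Nefm was 0.90 above its ganglion mean there and Nefh 0.66 above it. Map2 ran otherwise, with replicates 2 and 3 at 0.50 and 0.52 above the mean and replicate 4 at 0.39 below it. In adrenal medulla the highest array was replicate 2 or 3 and the lowest replicate 1 or 4 for all 10 genes. The shares of all genes with these ganglion and adrenal medulla patterns were not counted, so the patterns may not be particular to the members.

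Other parts of the cytoskeleton and axon were read from lists drawn up for these pathways. Of 14 further tubulins 8 were lower and 0 higher in carotid body compared with ganglion (8.28% and 5.61% of all genes), and the median difference was -1.40. This list holds all tubulin classes, also Tubg1, Tubg2, Tubd1 and Tube1, which are not axon tubulins. Tubg1 (-1.56) and Tubg2 (-1.92) were among the 8 lower. Tubb1 was below background in all tissues and Tube1 in carotid body. Tubb4a and Tuba4a, isotypes rich in nervous tissue, differed by -4.67 and -4.41, Tubb2a by -3.79 and Tubb4b by -1.96. Against adrenal medulla 3 were higher in carotid body (6.06% of all genes) and 0 lower: Tubb2a by 3.67, Tuba1a by 1.97 and Tuba1c by 1.77. With carotid body replicate 2 left out 4 were higher and 1 lower, and 1 was lower too without carotid body replicate 3 or adrenal medulla replicate 4. Tuba1c averaged 19.73 in carotid body and 19.88 in ganglion, close to the ceiling of the arrays, so its level there is compressed. Alpha-tubulin genes are also close copies of each other, which probes may not separate.

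Microtubule-binding proteins gave 16 of 22 genes lower in carotid body than in ganglion and 0 higher (8.28% and 5.61% of all genes). Map6, a microtubule stabiliser, differed by -3.58, the collapsin response mediators Crmp1 and Dpysl5 by -3.32 and -2.90, and Stmn2, a stathmin of growing axons, by -2.69. Between carotid body and adrenal medulla 7 were higher and 1 lower in carotid body (6.06% and 4.95% of all genes). Those higher were led by Dclk1 (3.21), a doublecortin-like kinase, Stmn2 (2.62), Dpysl3 (1.96), with Stmn1 and Tppp3, a tubulin polymerisation protein, at 1.94 each. The gene that was lower was Crmp1, at -1.29, no longer called without carotid body replicate 2 or 3.

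Motors of axonal transport were lower in carotid body than in ganglion for 14 of 17 genes (8.28% of all genes). Of the 17, 15 had the order of replicates 1, 3 and 2. That order held for 14.4% of all genes and 59.9% of those called lower in carotid body than ganglion. Kif21a and the kinesin heavy chain Kif5a differed by -3.54 and -3.30, Kif3c by -2.97 and Kif5c by -2.89. The cytoplasmic dynein heavy chain Dync1h1 was not called, at -0.13 (limma adjusted p = 0.799). Compared with adrenal medulla 4 motor genes were higher in carotid body (6.06% of all genes): Kif5a (2.40), Kif21a (1.35), Kif1a (1.29) and the light chain Klc1 (1.24). Only 2 were called without carotid body replicate 1, and 2 without adrenal medulla replicate 1.

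Spectrins, ankyrins and adhesion proteins form the membrane scaffold of the axon. Carotid body was lower than ganglion for 7 of 14 genes (8.28% of all genes). They were led by Cntnap2, an adhesion protein next to the node, (-4.00), Nrcam (-3.98), Add2 (-3.41) and Cntn1 (-2.87). Against adrenal medulla 7 of the 14 were higher in carotid body (6.06% of all genes). Among them were Cntnap2 (2.41), Cntn1 (1.81), Ank3 (1.59), which anchors channels at the axon initial segment, and L1cam (1.5). With carotid body replicate 1 left out 4 were higher and 1 lower. The beta-spectrin Sptbn1 averaged 16.62 in carotid body and 16.34 in ganglion, a difference of 0.27 (limma adjusted p = 0.315).

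Growth cone membrane proteins were lower in carotid body than in ganglion for 3 of 11 genes (8.28% of all genes), Rtn1 (-1.83), Basp1 (-1.67) and Gpm6b (-1.07). After quantile normalization the list had 2 lower and 1 higher. In the comparison with adrenal medulla, Gpm6b (3.08), Gpm6a (1.78) and Marcks (1.61) were higher in carotid body. Of the enzymes that modify tau, neurofilaments and tubulin 10 of 12 were lower in carotid body than in ganglion (8.28% of all genes). The tubulin glutamylases Ttll1 and Ttll7 differed by -4.19 and -3.48, the tubulin tyrosine ligase Ttl by -2.75 and the tau-tubulin kinase Ttbk2 by -2.42. Against adrenal medulla Ttl (1.53) and Ttll7 (1.01) were higher in carotid body. With carotid body replicate 1 left out 1 was higher and 1 lower, and 1 was higher without carotid body replicate 3 or adrenal medulla replicate 1, 3 or 4.

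Intermediate filaments of other cells gave 1 gene higher and 2 lower in carotid body against ganglion, of 12 measured, counts close to the shares among all genes (5.61% and 8.28%). Vim, the vimentin of mesenchymal and glial cells, read 15.99, 15.76 and 15.79 in carotid body, above its means of 14.37 in ganglion and 10.68 in adrenal medulla. It was higher in carotid body than in ganglion by 1.48 (limma adjusted p = 2.07e-05) and the only one of 12 that was called so, while Synm and Sync, which bind other filaments, differed by -1.73 and -1.47. Without ganglion replicate 2, 2 of the 12 were higher. Against adrenal medulla Vim (5.17) and Synm (1.68) were higher in carotid body. Keratins Krt8 and Krt18 averaged 5.29 and 4.71 in carotid body, under the background bound.

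Between adrenal medulla and ganglion the cytoskeleton and axon lists were counted in the same way. Lower in adrenal medulla were 8 of 14 tubulins, 18 of 22 microtubule-binding proteins and 14 of 17 motors (7.50% of all genes). So were 10 of 14 scaffold genes, 5 of 11 growth cone genes and 10 of 12 modifying enzymes. In each of these lists 0 were higher (5.72% of all genes). The largest differences in these lists were Tubb2a at -7.46, Cntnap2 at -6.41, Tubb4a at -6.32, Kif5a at -5.70 and Stmn2 at -5.31. In the tubulin list 1 gene became higher without adrenal medulla replicate 4 or ganglion replicate 4, and after median centring or quantile normalization.

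Over the 11 arrays, the protein-coding genes most like the mean standardised profile of the 10 were Cyp2j12 (Pearson's r 0.9983), Cdh8 (0.9980), Apba1 (0.9978), Dpysl5 (0.9976) and Trnp1 (0.9974). These correlations rest mainly on the differences between the 3 tissues and are a description. Apba1, an adaptor protein of the synapse, read 12.22, 9.91 and 11.01 on the carotid body arrays, between its adrenal medulla mean of 9.07 and its ganglion mean of 14.72. Each member also tracked the mean of the other 9, from r = 0.917 for Ina and 0.919 for Gap43 to 0.994 for Nefl.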

How the data were processed

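Total RNA of each pool was isolated with a column kit, amplified from a fixed input and hybridised to 1 array, per the labels' protocols. The authors summarised probes with RMA, and the submitters' processing notes also name Affymetrix Expression Console; the deposited table is in log2 units, taken from RMA and the range of values. Software versions and genome build are not given in the sources used here. The value table holds 72688 features, of which 30604 pair with 1 gene symbol; of a gene with several (355 genes), the row with the highest mean was used. Symbols and gene types were updated through RefSeq's GRCm38.p6 gene table. One limma model (version 3.58.1, R 4.3.3) with tissue as its only term was fitted to 30142 genes and 11 arrays, with no filter, and p-values were adjusted by Benjamini-Hochberg over all genes. It was tested on simulated data. The background bound is the 95th percentile of tissue means of 349 vomeronasal receptor and keratin-associated genes. Named genes are the 10 members, genes behind small counts and the 5 most alike. They also include up to 4 called genes of each list and comparison with the largest difference. Dync1h1, Sptbn1, Krt8, Krt18, Dbh, Pnmt, Avil, Chrnb4, Sox10, Mbp, Tubg1, Tubg2, Tubd1, Tube1 and Tubb1 were singled out after their values were seen. The members and lists were chosen with earlier results of these data known. Alternatives were each array left out, median centring, quantile normalization, dim genes left out, cluster means, protein-coding genes only, array weights, a trended robust prior, a replicate block and no fold limit. The number of arrays limits the precision.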

Additional observations from a re-analysis of the deposited data

Results flagged for a closer look

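For 3 values on adrenal medulla arrays the gap to the nearest of the other 3 arrays took up most of the group's range. Nefh read 7.41 on replicate 2, above the other adrenal medulla arrays. Ina read 10.04 on replicate 4, below them. Tubb3 read 8.11 on replicate 3, above them. The 20 groups of 4 arrays (10 genes in adrenal medulla and in ganglion) were examined, and chance alone marks about 5% of such groups. Each of the 3 values is on a different array.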

How the results depend on the processing

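Of 600 checks (30 comparisons of the 10 genes under 20 alternatives), 591 kept their direction and their side of the thresholds. All 10 genes remained called against ganglion in every alternative run, for carotid body and for adrenal medulla. The exceptions lay between carotid body and adrenal medulla. Nefm lost its call in 3 alternatives and Nefh gained one, as given in the report. Ina had a difference of -0.09 after median centring and -0.03 under the replicate block, and ranged from -0.35 to 0.59 when single arrays were left out. The cause was not tested. Without a fold limit, carotid body minus adrenal medulla gave 4139 genes higher and 4694 lower, carotid body minus ganglion 4286 and 5985, and adrenal medulla minus ganglion 4699 and 5664. With protein-coding genes only, so fewer tested, carotid body was higher for 1009 genes against adrenal medulla and 1020 against ganglion. The share of all genes with carotid body replicate 1 above 3 above 2 went from 14.4% to 31.4% after median centring and 24.4% after quantile normalization. Centring moved the median carotid body minus adrenal medulla difference of all genes from 0.05 to -0.10, and the share of calls that were higher from 55.1% to 44.5%. Quantile normalization moved that share from 40.4% to 51.2% for carotid body minus ganglion and from 43.3% to 53.9% for adrenal medulla minus ganglion. Same-numbered arrays of different tissues had correlations of -0.216 to 0.349 between their deviations, and in 3 of 20 checks an array correlated best with its own number, so the numbers were not taken to pair the samples. With the replicate block the members' counts were still 6 and 10, and over all genes carotid body minus adrenal medulla gave 1795 higher and 1507 lower.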
